A study of Mus musculus with 24 samples.

Results

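The comparison described here sets the cortex of 5xFAD mice homozygous for the M28L variant of Plcg2 against the cortex of 5xFAD mice without it. It compares 16 of the 24 libraries of the series, chosen by genotype label: 8 libraries labelled 5xFADM28L, called M28L below, and 8 labelled 5xFAD. Every mouse of both groups was 7.5 months old and carried the 5xFAD transgenes, which encode human proteins with familial Alzheimer's disease mutations under the neuronal Thy1 promoter and lead to amyloid plaques, so no group here is free of amyloid. Each genotype had 4 libraries with the letter F in the title and 4 with the letter M. Titles carry different animal numbers, used here as replicate names, and each library was taken as 1 mouse on that basis. The p-values therefore measure the spread between libraries. Except in the fit of only 16 libraries, the edgeR fits also took in libraries of 5xFAD mice homozygous for the P522R variant of Plcg2. Those mice were of the same age. The main fit held all 24 libraries, which shared 1 estimate of the spread.

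Plcg2 encodes phospholipase C-gamma-2, an enzyme that cleaves a membrane phosphoinositide into inositol trisphosphate, which releases calcium from stores, and diacylglycerol, which activates protein kinase C. In the brain it is found mainly in microglia, where it acts downstream of surface receptors such as Trem2 and the kinase Syk. Microglia gather around plaques and take up an activated state with high expression of lysosomal, lipid-handling and antigen-presenting genes.

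Total counts lay between 79230161 and 115154197 in 5xFAD and between 92358031 and 111292787 in M28L. Fewer genes had at least 1 count in M28L, 27221 ± 1047, than in 5xFAD, 28368 ± 366 (SD, n = 8 each, exact two-sided permutation, adjusted over 5 library measures, p = 0.021). The lowest of these counts, 25610 to 27630 genes, came from the 4 M28L F libraries. The 39 tested markers of cortical excitatory layers summed to between 2111 and 3756 CPM in the 16 libraries, where CPM is a gene's count per 1e6 counts of the TMM-adjusted library. Markers of the striatum, thalamus and hippocampus were also read, with 0 of 20, 2 of 20 (Rgs16 and Calb2, both higher) and 0 of 21 called by the test described below. M28L replicate 28, an F library, stood apart with 7.59% of its counts in mitochondrially encoded genes against at most 5.27% in the other 15.

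Plcg2 itself lay between 6.08 and 13.2 CPM in 5xFAD (median 9.32) and between 6.65 and 12.3 CPM in M28L (median 8.04). The groups overlapped, and M28L minus 5xFAD was -0.11 in log2 units (standard error, SE, 0.14, edgeR quasi-likelihood adjusted p = 0.86). The amino acid change was not read from these counts, so the level of Plcg2 does not check the labels.

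Of 21280 genes tested, 258 differed between M28L and 5xFAD, which is 1.21% (edgeR quasi-likelihood test, Benjamini-Hochberg adjusted p below 0.05, with the letter as a covariate). Of these 107 were higher in M28L (0.503% of all genes tested) and 151 were lower (0.71%). The falls were larger: the median log2 difference was -0.75 over the genes that fell and 0.45 over those that rose, and 45 falls but only 10 rises went beyond 1. A difference smaller than 0.5 on the log2 scale was seen for 64 of the rises and 22 of the falls. In 27 genes all 8 M28L libraries lay above all 8 5xFAD libraries and in 27 all lay below, each 0.127% of the genes tested and 0.254% together. The median over all genes tested was 0.01. The count of 258 was 157, 158, 160 or 163 without 5xFAD replicate 1190, 1180, 1248 or 1181, and with upper-quartile scaling the share of calls that were higher was 30.1% in place of 41.5%.

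The called genes are described below in 3 sets. Counts of list members are to be read beside the 0.503% of all genes tested that rose and the 0.71% that fell. The lists were chosen with earlier results of these data known. The first holds the falls, led by the microglial lists. The second holds rises of collagens and other matrix proteins. Described beside it are genes whose difference itself differed between F and M libraries, of which Lox and Grem1 were not called over all libraries. The third holds rises among immediate early, clock and glucocorticoid-responsive genes, and none of those named passed the test of a difference between letters. Presynaptic, postsynaptic, myelin and oxidative phosphorylation lists held no called gene.

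**Figure D1:**
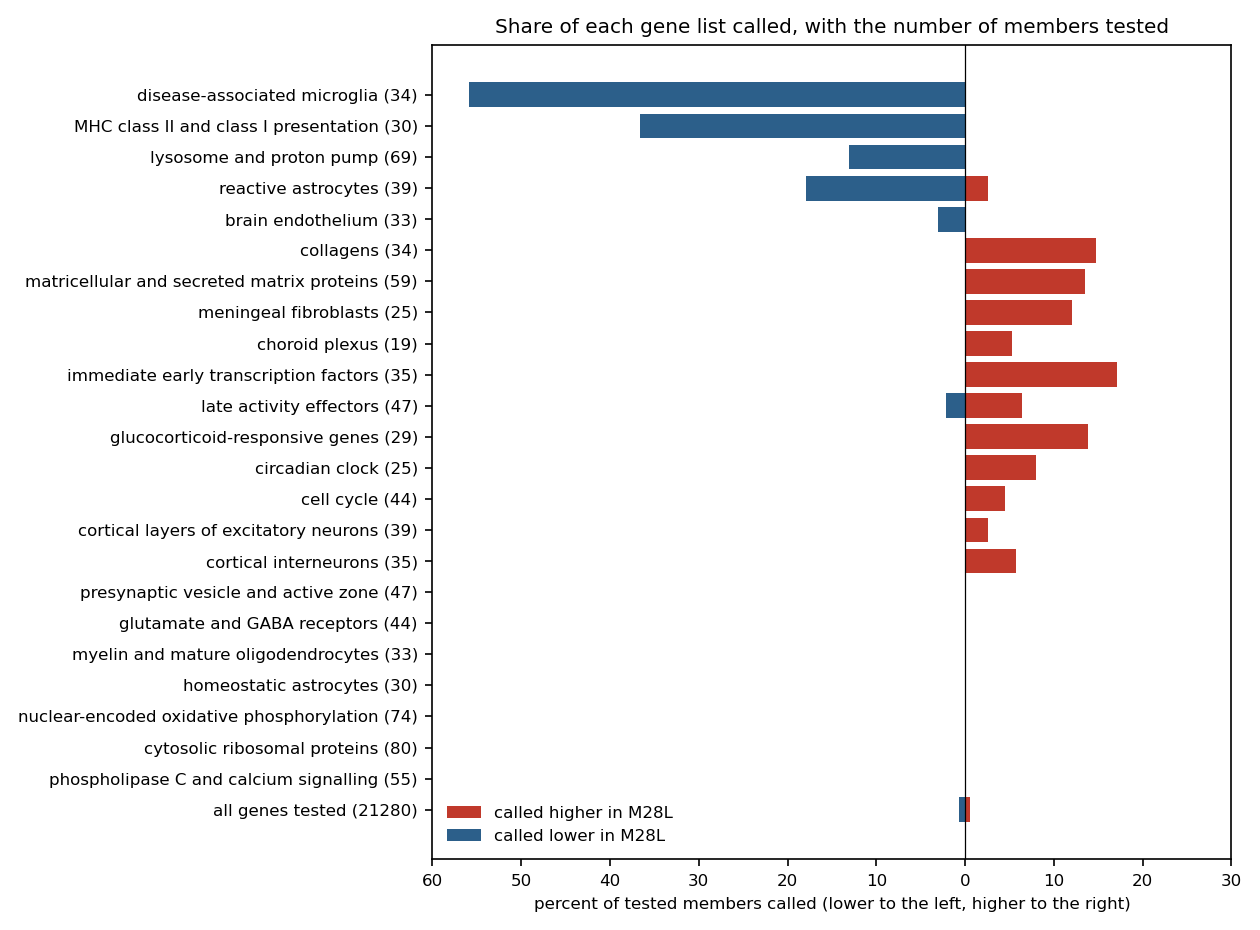
Percent of the tested members of each gene list called lower (blue, to the left) or higher (red, to the right) in M28L than in 5xFAD, with the number of members tested in parentheses. Of the disease-associated microglia list 55.9% was called, all lower, while the lists of presynaptic, glutamate and GABA receptor, myelin, oxidative phosphorylation, ribosomal and phospholipase C genes had no called member.

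Microglial lists lead the falls. Of 34 disease-associated microglia genes 19 fell and 0 rose (55.9%, against 1.21% of all genes tested), with a median of -0.65. Of 30 genes of MHC class II and class I presentation, which load peptides for T cells, 11 fell, with a median of -0.58. Of 25 homeostatic microglia genes 1 fell, the fractalkine receptor Cx3cr1, with a median of -0.10 and 20% of members above 0, and in a fit of only these 16 libraries 5 of the 25 were lower, where 1.95% of all genes were. In bulk cortex, fewer cells of a type and less RNA per cell cannot be told apart. Of the 151 genes that fell 45 stood in an immune or microglia list and 89 in no list at all.

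Among the falls were parts of the phagocyte NADPH oxidase, the enzyme that makes superoxide at the membrane. Cybb, its catalytic subunit (ENSMUSG00000015340.11, chromosome X, 9301491 to 9354010 as the authors' table lists it, whose build no source used here gives), lay at 4.87, 4.34, 6.38 and 4.26 CPM in the 5xFAD F libraries and at 3.94, 4.06, 2.73 and 4.25 CPM in the 5xFAD M libraries. It lay at 1.68, 1.96, 1.95 and 1.48 CPM in the M28L F libraries and at 1.03, 1.15, 0.736 and 1.36 CPM in the M28L M libraries. The groups did not overlap. Cybb fell by 1.64 (SE 0.14, edgeR adjusted p = 3.5e-08), by 1.48 in F libraries alone and by 1.83 in M libraries alone, and was called in each.

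Cyba, the partner of Cybb in the membrane, ranged from 7.91 to 27.9 CPM in 5xFAD and from 5.76 to 17.5 CPM in M28L. Its levels also differed between letters: the 5xFAD F libraries lay between 21.9 and 27.9 CPM and the 5xFAD M libraries between 7.91 and 12.0 CPM. Within each letter the groups did not overlap, and Cyba fell by 0.72 (SE 0.16, adjusted p = 0.015). Hvcn1, the proton channel that balances the charge moved by the oxidase, lay between 8.37 and 18.3 CPM (median 14.5) in 5xFAD and between 5.68 and 12.6 CPM (median 7.64) in M28L, and fell by 0.75 (SE 0.13, adjusted p = 0.0025). Neither fall was called without the letter in the model or with the share of counts in Bc1, a short neuronal RNA, as a covariate. Of the falls named below, Plaur, Asb10, Pdcd1, Dkk2, Hpse and Rny1 were lost under both changes, Cldn5 and Rny3 with the Bc1 share, and Slc15a3, Slc11a1, St14, Hcar2, Apobec1, Lgals3, Gpr65, Igf1 and Tgfbr2 without the letter.

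Plau, the urokinase that activates plasmin, lay at 20.6, 18.2, 23.3 and 22.6 CPM in 5xFAD F libraries against 6.85, 6.94, 8.96 and 6.83 CPM in M28L F libraries. In M libraries it lay at 13.6, 10, 7.81 and 8.37 CPM in 5xFAD and at 4.43, 4.82, 5.05 and 5.72 CPM in M28L. All M28L libraries were thus below all 5xFAD libraries of their letter. Plau fell by 1.26 (SE 0.14, adjusted p = 4.2e-06). Its receptor Plaur lay between 1.5 and 3.47 CPM (median 2.54) in 5xFAD and between 0.989 and 2.34 CPM (median 1.23) in M28L, and fell by 0.77 (SE 0.14, adjusted p = 0.0025). St14, a membrane serine protease, ranged from 2.38 to 10.1 CPM in 5xFAD and from 1.31 to 3.70 CPM in M28L, and fell by 1.24. Hpse, the heparan sulfate cleaving enzyme, fell by 0.98 and is outside the naming rule, chosen after its values were seen.

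Mamdc2, a secreted glycoprotein, had groups that did not overlap, with 2.28 to 6.30 CPM (median 4.26) in 5xFAD and 0.560 to 1.70 CPM (median 1.24) in M28L. It fell by 1.71 (SE 0.19, adjusted p = 4.2e-06), and was called in F and in M libraries alone. Slc15a3, a lysosomal peptide and histidine transporter, fell from a median of 13.3 CPM to 5.71 CPM, a change of -1.15 (SE 0.16, adjusted p = 0.00012). Slc11a1, the phagosomal metal transporter, fell from a median of 13.7 CPM to 6.65 CPM, a change of -0.97. Dcstamp, a fusion protein of osteoclasts and macrophages, fell by 2.94 at low levels, from at most 1.23 CPM in 5xFAD to at most 0.267 CPM in M28L. Hcar2, the niacin and ketone body receptor, fell by 1.30, Gpr65, a proton-sensing receptor, by 1.09, and Pdcd1, the inhibitory receptor PD-1, by 1.31. The carbohydrate-binding protein Lgals3 fell by 1.08, the RNA editing enzyme Apobec1 by 0.76 and the ubiquitin ligase adaptor Asb10 by 1.26.

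Other named falls were those of Lpl, Igf1, Tgfbr2, Cldn5 and Dkk2. Lpl, the lipase of triglyceride-rich lipoproteins, lay between 41.2 and 68.8 CPM (median 52.3) in 5xFAD and between 28.7 and 48.6 CPM (median 33.5) in M28L, and fell by 0.63 (SE 0.10, adjusted p = 0.00041). The growth factor Igf1 fell by 0.61 (SE 0.13, adjusted p = 0.011) and Tgfbr2, a TGF-beta receptor subunit, by 0.51 (SE 0.09, adjusted p = 0.0017). Cldn5, the tight junction protein of brain endothelium, lay between 16.6 and 26.6 CPM (median 22) in 5xFAD and between 8.82 and 16.7 CPM (median 14.0) in M28L. It fell by 0.67 (SE 0.14, adjusted p = 0.0096) and was the only called gene of 33 endothelial genes, whose median was -0.14. Dkk2, a secreted Wnt regulator, fell by 0.95, a call lost without 5xFAD replicate 1248 (adjusted p = 0.055).

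**Figure D2:**
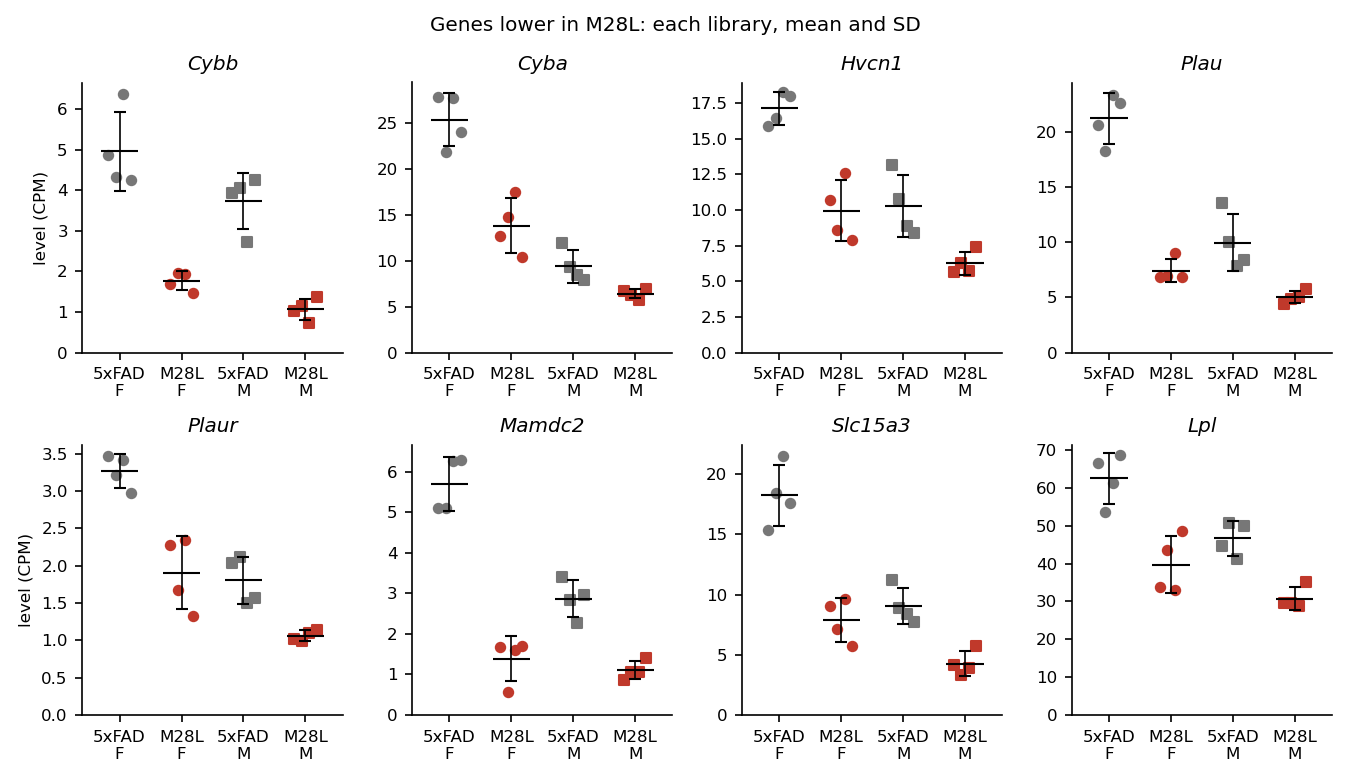
Levels in CPM of 8 genes that fell in M28L, by genotype and title letter, with 4 libraries a group. Points are libraries, long bars are means and error bars are SD. In all 8 panels every M28L library lies below every 5xFAD library of the same letter.

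All 151 genes that fell were lower in M28L in F and in M libraries alike, with medians of -0.78 and -0.69. They were called over these same libraries together, so this agreement is largely set by that choice and is no separate test. In F libraries alone 102 of 21519 genes tested were called (0.474%), 50 of them lower (0.232%), and 48 of these were among the 151. In M libraries alone 5 were called (0.0235% of 21280 tested): Cybb, Mamdc2, Atp6v0d2, Lilrb4a and ENSMUSG00000119895.1. That last gene is not in GENCODE M21 and is 164 bases long on chromosome 12 (54743567 to 54743730). It was chosen after its values were seen, and lay between 1.73 and 9.72 CPM in 5xFAD and between 0.0198 and 0.897 CPM in M28L. It fell by 4.31 (SE 0.49, adjusted p = 4.2e-06). The small cytoplasmic RNAs Rny1 and Rny3, also chosen after their values were seen, fell by 2.26 (SE 0.50) and 2.13 (SE 0.46). The Rny1 call was lost without 5xFAD replicate 1270 (adjusted p = 0.050) and the Rny3 call without 5xFAD replicate 1190 (adjusted p = 0.054).

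Of the 107 genes that rose 15 stood in a matrix or fibroblast list and 66 in no list. Of 34 collagens 5 rose (Col1a1, Col1a2, Col3a1, Col5a2 and Col6a3) and 0 fell, with a list median of 0.18. Of 59 matricellular and secreted matrix proteins 8 rose and 0 fell, with a median of 0.16. Thbs1, a matrix glycoprotein, lay between 1.05 and 1.60 CPM in the 8 5xFAD libraries. In the M28L F libraries it lay at 25.5, 13.2, 21.1 and 12.5 CPM and in the M28L M libraries at 7.39, 2, 4.05 and 5.87 CPM. No M28L library overlapped 5xFAD. Thbs1 rose by 2.89 (SE 0.35, adjusted p = 1.4e-05), by 3.83 in F libraries alone, where it was called, and by 1.71 in M libraries alone, where it was not (adjusted p = 0.18).

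Lox, the enzyme that crosslinks collagen and elastin, was split by letter. Its M28L F libraries held 22.8, 12.2, 20.2 and 10.9 CPM against at most 2.44 CPM in any 5xFAD library, while its M28L M libraries held between 0.449 and 0.891 CPM. In the 4 F libraries of the third genotype of the series, 5xFAD with the P522R variant, Lox lay between 1.11 and 2.16 CPM. Averaged over letters its difference was 1.92 and was not called (adjusted p = 0.051). The difference between M and F in the M28L effect was -3.67 (interaction, adjusted p = 3.3e-05).

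The interaction of genotype and letter was called for 6 genes, 0.0282% of the 21280 tested, and 5 of them are described here: Lox, Tnc, Grem1, Fbln2 and Lpp. Tnc, a matrix protein of developing and injured tissue, lay at 9.80, 14.0, 11.9 and 9.85 CPM in M28L F libraries against 2.34 to 2.53 CPM in 5xFAD F libraries, while in M libraries it lay between 3.03 and 3.77 CPM in M28L and between 2.61 and 3.35 CPM in 5xFAD. Fbln2, a basement membrane protein, lay between 9.43 and 14.4 CPM in M28L F libraries and between 3.50 and 4.56 CPM in 5xFAD F libraries. Grem1, a BMP antagonist, lay between 4.26 and 5.26 CPM there and no higher than 2 CPM in 5xFAD. Lpp, a focal adhesion protein, lay between 9.12 and 10.2 CPM against 4.56 to 5.70 CPM, and its rise over both letters, 0.49, was lost in 7 of the 16 fits with a library left out (adjusted p at most 0.076). In all 5 genes the 4 M28L F libraries lay above all 4 5xFAD F libraries, a pattern seen in 3.03% of all genes tested. These genes were chosen by the interaction in the same libraries, so the pattern adds no separate support. The reverse pattern was seen in 3.91%, and in M libraries the M28L group lay wholly above in 6.08% and wholly below in 3.55%.

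**Figure D3:**
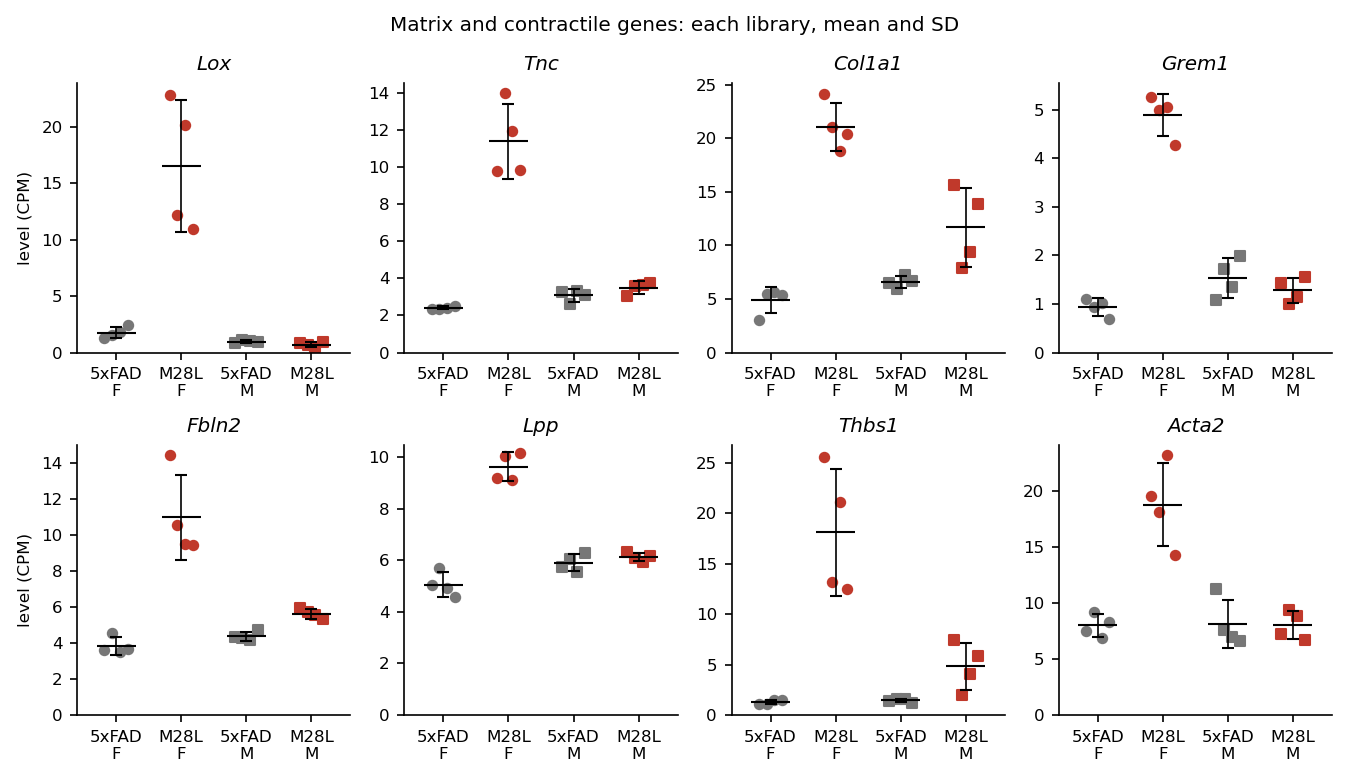
Levels in CPM of 8 matrix and contractile genes by genotype and title letter, with 4 libraries a group. Points are libraries, long bars are means and error bars are SD. The M28L F libraries stand above the other groups in every panel, and in Thbs1, Fbln2 and Col1a1 the M28L M libraries also lie above all 5xFAD libraries.

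Col1a1, a chain of type I collagen, lay at 24.2, 21.0, 18.8 and 20.4 CPM in M28L F libraries, between 7.88 and 15.6 CPM in M28L M libraries and between 3.04 and 7.22 CPM in 5xFAD, with no overlap. It rose by 1.48 (SE 0.18, adjusted p = 2.7e-05). Col1a2 rose by 0.78 (SE 0.11), Fn1, the gene of fibronectin, by 0.68 (SE 0.14) and Bgn, a small proteoglycan, by 0.64 (SE 0.13). These 3 genes were as high in P522R F libraries, at 19.4 to 27.3, 40.2 to 60.6 and 22.7 to 29.2 CPM. The M28L F libraries held 19.7 to 28.7, 36.8 to 64.4 and 19.1 to 30.1 CPM. The 5xFAD F libraries held 9.29 to 14, 19.4 to 26.8 and 8.11 to 15.2 CPM. Col1a1 lay at 8.37 to 12.8 CPM in P522R F libraries, between its 5xFAD F and M28L F libraries. The growth factor binding protein Ccn2 rose by 0.45 (SE 0.09), with groups that did not overlap. Col6a3 rose by 0.79, lost without 5xFAD replicate 1180, 1190 or 1248 (adjusted p at most 0.055). The Col5a2 and Col3a1 rises were lost in 5 and 12 of the 16 fits with a library left out (adjusted p at most 0.075 and 0.11). Actg2, a smooth muscle actin, rose by 2.81 from at most 0.144 CPM to between 0.247 and 0.714 CPM. Acta2, the vascular smooth muscle actin, lay between 14.3 and 23.2 CPM in M28L F libraries and between 6.74 and 9.35 CPM in M28L M libraries, against 6.62 to 11.3 CPM in 5xFAD. It was not called over all libraries (adjusted p = 0.080), and in the F libraries of the P522R genotype it lay between 12.7 and 19.0 CPM. With the Bc1 share as a covariate Tnc, Fn1, Bgn, Ccn2, Lpp, Col3a1, Col5a2 and Col6a3 were not called, while Thbs1, Col1a1, Col1a2, Fbln2 and Actg2 were.

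Further genes were high in the same 4 libraries. Mki67, a marker of dividing cells, lay at 3.47, 2.98, 2.98 and 3.89 CPM in M28L F libraries, against 0.830 to 1.39 CPM in 5xFAD, and rose by 1.0 (SE 0.20, adjusted p = 0.0075). Hmga2, an embryonic chromatin protein that was too low to enter the test over all libraries, lay between 1.23 and 3.45 CPM in M28L F libraries and reached only 0.097 CPM in M28L M libraries. Hmga2 is outside the naming rule. In F libraries alone 52 genes were higher in M28L (0.242% of 21519), and 10 of these, Hmga2 among them, were too low in the other groups to be tested over all libraries, so that they entered the F test only through the group in which they were high. The M28L F libraries also held Ddx3y, a Y-linked gene, at 0.195 to 0.328 CPM, while 3 of the 4 5xFAD F libraries held none and 1 held 0.232 CPM. Eif2s3y, Uty and Kdm5d, Y-linked genes outside the naming rule, lay at 0.0386 to 0.355, 0.0699 to 0.16 and 0 to 0.164 CPM in M28L F libraries. Each was above 0 in 1 5xFAD F library, replicate 1180, at 0.464, 0.171 and 0.183 CPM. In P522R F libraries Ddx3y and Uty reached 0.224 and 0.425 CPM.

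Markers of neighbouring tissue were read beside these genes. Of 25 meningeal fibroblast genes 3 rose, all of them collagens, with a median of 0.28 and 92% of members above 0. That list summed to 362.9 to 425.2 CPM in M28L F libraries, 345.8 to 421.1 CPM in M28L M libraries, 300.5 to 389.1 CPM in 5xFAD F libraries and 316.3 to 344.9 CPM in 5xFAD M libraries. The fibroblast gene Dcn differed by 0.31 (adjusted p = 0.15), with all M28L F libraries (18 to 23 CPM) above all 5xFAD F libraries (13.9 to 17.4 CPM), while Slc6a13, a transporter of the same cells, differed by 0.02 (adjusted p = 0.98). Dcn and Slc6a13 are outside the naming rule. Lum, another fibroblast gene, lay at 1.62 to 2.85 CPM in M28L M libraries, above the 1.23 to 1.43 CPM of 5xFAD M libraries. Its F libraries overlapped, at 1.13 to 2.41 CPM in M28L and 0.952 to 1.31 CPM in 5xFAD. No pericyte or smooth muscle gene of 20 was called over all libraries, and 1, Acta2, was called in F libraries alone, at 1.24 (adjusted p = 0.00095). The part of these markers, of the Y-linked reads and of the lower number of genes detected in the F rises was not tested.

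**Figure D4:**
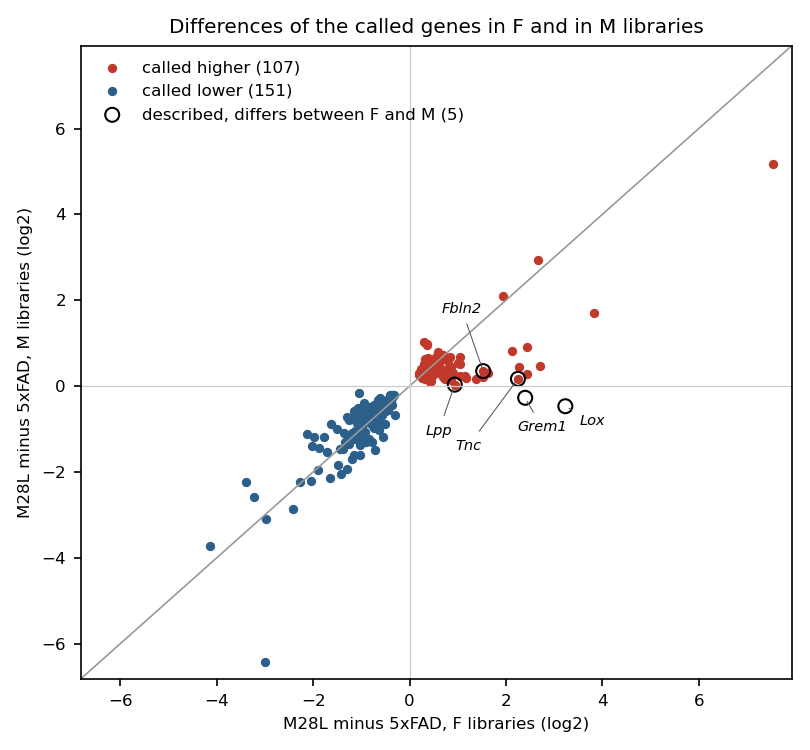
Log2 difference between M28L and 5xFAD in F libraries (horizontal) and in M libraries (vertical) for the 107 genes called higher (red) and the 151 called lower (blue), with the line of equal differences. The 5 circles mark described genes whose difference itself differed between letters, of which Lox and Grem1 are in neither called set and have no coloured point, and they lie to the right of the line.

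Over the 107 genes that rose the median was 0.45 in F and 0.33 in M libraries, and the rise was larger in F in 74 of them. In F libraries alone 26 of the 107 were called, and in M libraries alone 0 (0% of 21280 tested were higher there).

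Of 35 immediate early transcription factors, which neurons and other cells induce within minutes of stimulation, 6 rose and 0 fell, with a median of 0.30 and 85.7% of members above 0, against 51.5% of all genes tested. The list median was 0.11 in F libraries, where 3 members were called, and 0.46 in M libraries, where 0 were, and this difference was not tested. A high share of members above 0 was not particular to activity genes. It was 88.9% among 36 genes of endoplasmic reticulum and integrated stress, with a median of 0.12 and 0 called. The share was 80.0% among interneuron genes and 77.3% among glutamate and GABA receptors, but 42.4% among myelin genes. Egr1 lay between 235 and 414 CPM (median 264) in 5xFAD and between 339 and 563 CPM (median 427) in M28L. It rose by 0.62 (SE 0.11, adjusted p = 0.0025), by 0.56 in F and 0.67 in M libraries. Nr4a3, an orphan nuclear receptor, lay between 11.9 and 27.1 CPM (median 16.9) in 5xFAD and between 26.3 and 44.0 CPM (median 36.0) in M28L, and rose by 0.88 (SE 0.16, adjusted p = 0.0025). The AP-1 subunits Fosl2 and Fosb rose by 0.71 (SE 0.14) and 0.69 (SE 0.15). Klf4 rose by 0.72, a call lost without 5xFAD replicate 1248 or 1177 or M28L replicate 9 (adjusted p at most 0.069).

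Dusp4, a phosphatase that switches off MAP kinases, lay between 3.94 and 8.87 CPM in 5xFAD and between 8.83 and 13.5 CPM in M28L, and rose by 0.77 (SE 0.13, adjusted p = 0.0012). Of 47 late activity effectors 3 rose and 1 fell, with 80.9% of members above 0. In the fit of only the 16 libraries of these genotypes, in which 707 genes were called (3.42% of 20685, with 1.46% higher and 1.95% lower), 10 immediate early genes and 11 late effectors rose.

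Of 25 circadian clock genes 2 rose, and both are repressors in the clock. Per2 lay between 13.1 and 34.7 CPM (median 30.7) in 5xFAD and between 33.8 and 62.3 CPM (median 44.2) in M28L, and rose by 0.76 (SE 0.12, adjusted p = 0.00088). Bhlhe40 lay between 81.1 and 138 CPM (median 125) in 5xFAD and between 150 and 217 CPM (median 173) in M28L, with no overlap, and rose by 0.55 (SE 0.09, adjusted p = 0.00081). The time of day at which tissue was taken was given in none of the sources used, and its part in these rises was not tested.

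Of 29 glucocorticoid-responsive genes 4 rose: Sgk1, Tsc22d3, Zbtb16 and Errfi1. Zbtb16, a zinc finger repressor, rose by 0.52 (SE 0.11) and Errfi1, an inhibitor of EGF receptor signalling, by 0.32 (SE 0.07) with groups that did not overlap. The kinase Sgk1 lay at 147, 98.6, 111 and 62.7 CPM in M28L M libraries, between 62.8 and 83.3 CPM in M28L F libraries and between 46.6 and 63.8 CPM in 5xFAD. It was called at 0.65 (SE 0.16, adjusted p = 0.038), a call lost in 10 of the 16 fits with a library left out (adjusted p at most 0.099). Tsc22d3, a leucine zipper protein, had groups that did not overlap, and its call, at 0.48, was lost in 6 of those fits (adjusted p at most 0.068). Irs2, an adaptor of insulin signalling, rose by 0.58 (SE 0.10), Arid5b, a chromatin regulator, by 0.48 (SE 0.08), and Sik2, a kinase that restrains CREB coactivators, by 0.48 (SE 0.08). With the Bc1 share as a covariate Fosl2, Fosb, Dusp4, Sik2, Irs2 and all 4 glucocorticoid-responsive genes were not called, while Egr1, Nr4a3, Klf4, Per2, Bhlhe40 and Arid5b were. Without the letter in the model Egr1, Per2, Bhlhe40, Dusp4 and Irs2 were called and the others named here were not.

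**Figure D5:**
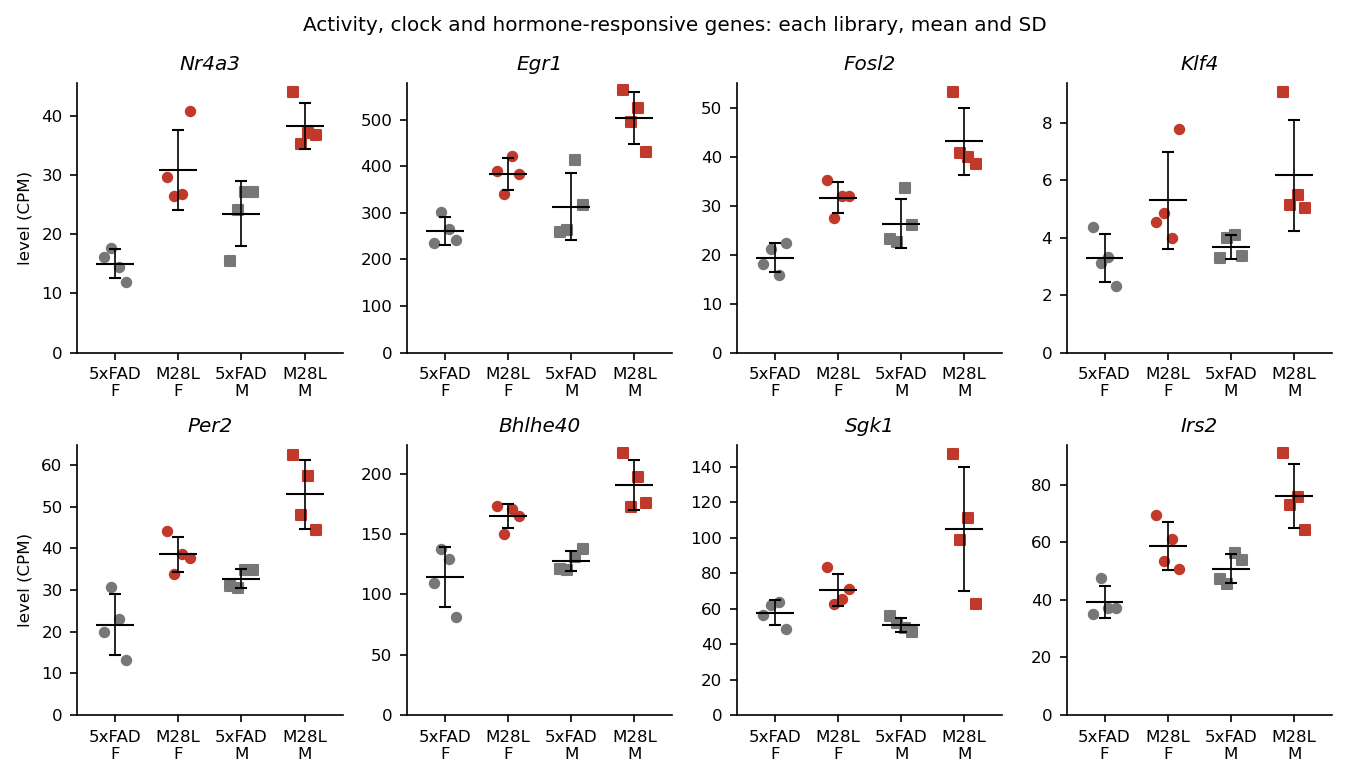
Levels in CPM of 8 activity, clock and hormone-responsive genes by genotype and title letter, with 4 libraries a group. Points are libraries, long bars are means and error bars are SD. In Nr4a3, Egr1, Fosl2, Per2, Bhlhe40 and Irs2 the M28L libraries lie above the 5xFAD libraries within each letter, while Klf4 and Sgk1 overlap in the F libraries.

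Promoters of called genes were searched for 6 short motifs in the 250 bases before the transcription start, on both strands, in RefSeq promoters of build GRCm38.p6. Promoters were at hand for 74 of the genes that rose, 102 of those that fell and 13548 of all genes tested. The AP-1 site TGANTCA was present in 10.8% of the genes that fell, 4.05% of those that rose and 5.76% of all. The letters GGAATG, which TEAD factors bind, were present in 23% of the genes that rose, 8.82% of those that fell and 13% of all. The E-box CACGTG was present in 10.8%, 2.94% and 9.07%, and the PU.1 sequence GAGGAAGT in 2.7%, 6.86% and 2.75%, in the same order. The cAMP response element TGACGTCA was present in 1.35%, 0.98% and 2.72%. The serum response element was searched only as a single exact sequence, with no variable letters. That sequence was absent from both sets and present in 0.0221% of all. Other forms of the element were not searched for, so these values cannot show that the promoters lack it. A match of letters is a description and not a bound site.

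The AP-1 letters stand in capitals in 4 RefSeq promoters of genes that fell, read 5′ to 3′ along the gene and shown because they belong to genes named here. Itgax, an integrin of activated microglia, fell by 1.62.
Cybb: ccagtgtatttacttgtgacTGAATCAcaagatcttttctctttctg
Itgax: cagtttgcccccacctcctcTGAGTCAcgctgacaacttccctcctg
Plaur: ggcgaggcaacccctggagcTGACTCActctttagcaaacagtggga
Igf1: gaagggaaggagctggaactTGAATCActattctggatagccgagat
They lie at chrX:9469437-9469483 (minus strand), chr7:128129474-128129520, chr7:24462394-24462440 and chr10:87861054-87861100 (plus strand), with the capitals starting 139, 56, 69 and 37 bases before the start.

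Of 4 RefSeq promoters of genes that rose, 3 hold the reverse complement of GGAATG and 1 holds the E-box, both in capitals and shown because these motifs were more frequent in rises than in falls.
Nr4a3: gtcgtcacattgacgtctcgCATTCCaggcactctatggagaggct
Errfi1: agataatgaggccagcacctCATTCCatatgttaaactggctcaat
Kcna5: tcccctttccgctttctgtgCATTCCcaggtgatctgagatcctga
Irs2: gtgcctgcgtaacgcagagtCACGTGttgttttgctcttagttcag
They lie at chr4:48045090-48045135 and chr4:150853711-150853756 (plus strand), chr6:126535658-126535703 and chr8:11008948-11008993 (minus strand). Kcna5, a voltage-gated potassium channel, lay between 7.13 and 9.28 CPM in 5xFAD and between 10.1 and 12.1 CPM in M28L, with no overlap, and rose by 0.45 (SE 0.09, adjusted p = 0.011).

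Of 55 genes of phospholipase C, inositol trisphosphate, diacylglycerol and calcium signalling 0 were called by edgeR, with a median of -0.01, and 1 was called lower in the fit of 16 libraries. The lowest p-values belonged to the exchange factor Vav1 at -0.44 (SE 0.14, adjusted p = 0.14), the Ras activator Rasgrp3 at -0.32 (SE 0.12, adjusted p = 0.26) and the kinase Btk at -0.34 (SE 0.13, adjusted p = 0.26). Plcg1, the related phospholipase of most other cells, differed by 0.02 (SE 0.09, adjusted p = 0.97). Of 41 genes of proximal immune receptor signalling 3 fell, with a median of -0.22.

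Neuronal lists held few called genes. Of 47 presynaptic genes, 46 postsynaptic genes, 44 glutamate and GABA receptors and 33 sodium and calcium channels 0 were called, with medians between 0.04 and 0.05. Of 35 interneuron genes 2 rose, of 39 layer markers 1 rose. Calb2, a calcium-binding protein of interneurons, rose by 0.46 (SE 0.10, adjusted p = 0.023), a call lost without 5xFAD replicate 1180 or 1190 or M28L replicate 12 (adjusted p at most 0.062). The 33 myelin genes, 30 homeostatic astrocyte genes, 74 nuclear-encoded oxidative phosphorylation genes, 80 ribosomal proteins and 47 sterol and fatty acid synthesis genes had 0 calls, with medians between -0.03 and 0.03. Of 39 reactive astrocyte genes 7 fell and 1 rose. Lists could share members: the highest difference in this list, 2.89, was that of Thbs1, described above with the matrix proteins. Which cells these changes came from was not tested.

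Choroid plexus genes were above 0 in 19 of 19 tested, with a median of 0.78, and 1 was called, Otx2, a homeobox factor. Otx2 lay at 1.32 CPM in M28L replicate 17 and 1.12 CPM in M28L replicate 28, and at most at 0.280 CPM in the other 14 libraries. Its difference of 2.02 (SE 0.49, adjusted p = 0.035) was 1.39 without M28L replicate 17 (adjusted p = 0.16) and 1.64 without M28L replicate 28 (adjusted p = 0.092), and the call was lost without 7 other libraries in turn. Without M28L replicate 17 no choroid plexus gene was called, against 1.03% of all genes tested (0.41% higher, 0.619% lower). The list summed to 701.1 CPM in the highest M28L M library and to at most 264.1 CPM in the 5xFAD libraries.

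Of 227 tested genes within 10 Mb of Plcg2 on chromosome 8, 4 were called (1.76%, against 1.21% of all genes). Cyba fell, and Cbfa2t3, a transcriptional corepressor, rose by 0.40 (SE 0.09), as did Calb2. Banp was called at 0.50 (adjusted p = 0.047), a call lost in 13 of the 16 fits with a library left out. Linked sequence around an edited locus cannot be told apart from the variant in this design.

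Some single genes outside these lists rose as well. Ano2, a calcium-activated chloride channel, rose by 0.64 (SE 0.12, adjusted p = 0.0033), and Dlk1, a Notch-related ligand, by 0.64 (SE 0.13, adjusted p = 0.011). Tex10 rose by 0.34 (SE 0.06, adjusted p = 0.0035). The Wnt receptor Fzd1 rose by 0.43 (SE 0.09, adjusted p = 0.011) and Ccnd2, a G1 cyclin, by 0.34, with groups that did not overlap and a call lost without 5xFAD replicate 1248 or 1177 or M28L replicate 12 or 9 (adjusted p at most 0.065). Dlk1, Tex10, Fzd1 and Ccnd2 were not called without the letter in the model, nor with the Bc1 share as a covariate. Ano2 was called under both changes.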

How the data were processed

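The deposited table holds whole-number read counts per gene, not normalized, made by the authors with STAR 2.7.2b and featureCounts, per the submitters' processing notes. Genome build, annotation and strand setting are not given in the sources used here, so reads of overlapping or antisense genes cannot be told apart. Symbols come from a list of gene names, with GENCODE M21 as the second source, and 52094 of 53647 identifiers (97.1%) have a symbol. Only 2.8% have the same start and end as in M21. Positions printed from the authors' table are therefore not to be set beside the GRCm38.p6 promoter positions.

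Counts were fitted with edgeR 4.0.16 in R 4.3.3 (TMM factors, filterByExpr on genotype, quasi-likelihood F-test, genotype and letter, all 24 libraries), which left 21280 genes. The interaction of genotype with letter was fitted separately. SE is the log2 difference divided by the root of F. No 2 of the 16 libraries had identical counts. The members and the 62 gene lists were chosen with earlier results of these data known. The text could name the 20 largest rises and falls at 1 CPM or more, the 15 smallest p in each direction, 4 members of each list, 10 interaction genes and called genes within 10 Mb of Plcg2; any other is marked so in the text. The 12 alternatives included DESeq2 1.42.0 and limma 3.58.1, beside leaving out each of 16 libraries. The code was tested on simulated data. Some called genes are not reported here.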

Additional observations from a re-analysis of the deposited data

Results flagged for a closer look

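Several libraries lay far from the other 7 of their group, by a gap that chance gives in about 1 in 20 groups; 148 groups were looked at and 15 were so marked. In 5xFAD replicate 1180 the total count was 79230161, Col1a1 lay at 3.04 CPM, Col1a2 at 9.29 CPM and Bgn at 8.11 CPM, each the lowest of its group. In 5xFAD replicate 1269 Egr1 at 414 CPM and Fosb at 23.9 CPM were the highest. M28L replicate 28 held 6.01% of its counts in Bc1 and 7.59% in mitochondrially encoded genes, a median absolute log2 deviation from its group of 0.245, and Igf1 at 10.2 CPM. Dcstamp was high in M28L replicate 14 at 0.267 CPM and Fn1 in M28L replicate 12 at 64.4 CPM. In M28L replicate 9 Ccnd2 at 98.1 CPM and Dusp4 at 13.5 CPM were the highest, as was Dlk1 at 16.2 CPM in M28L replicate 17.

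The difference between M28L and 5xFAD itself differed between M and F libraries for 5 genes described above (M minus F, log2, edgeR interaction). It was -3.67 for Lox (adjusted p = 3.3e-05) and -2.06 for Tnc (adjusted p = 5.3e-05). It was -2.65 for Grem1 (adjusted p = 0.013), -1.15 for Fbln2 (adjusted p = 0.022) and -0.88 for Lpp (adjusted p = 0.03).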

How the results depend on the processing

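The count of 258 genes moved with the libraries fitted, the tool and the covariates. It was 707 in the fit of only these 16 libraries (303 higher, 404 lower), 545 with DESeq2 (241 and 304) and 3844 with limma-voom and sample weights (2196 and 1648). An alternative added after seeing the data, limma-voom with no sample weights, gave 271, and the weights ran as low as 0.144, in M28L replicate 28. The count was 49 without the letter (24 and 25), 72 with Bc1 share as covariate (21 and 51), 102 in F libraries alone (52 and 50) and 5 in M libraries alone (0 and 5). With the title prefix as a replicate block it was 101 (10 higher and 91 lower). The 3 prefixes shared by M28L and 5xFAD libraries gave correlations of deviations of -0.016, 0.076 and -0.127. Pairs of unlike prefix within a letter gave -0.471 to 0.521. So few shared pairs cannot decide whether the prefix pairs the samples. Leaving out a library in turn gave counts from 157 to 305. For genes higher the range was 59 to 134 and for genes lower 92 to 171. In the 16-library fit the interaction called 10 genes and the gene lists held 185 called genes in place of 103. Leaving out a library moved the difference in genes detected between -1290 and -916.1, no longer past the threshold without 5xFAD replicate 1190, 1248, 1177 or 1269, and the difference in the Bc1 share between -2.127 and -1.156 percentage points, past it without 5xFAD replicate 1181 or 1270 or M28L replicate 28. Of 64 called genes named in the text, 50 were called in all 16 such fits, 38 were lost without the letter, 35 with the Bc1 share and 38 with the block, and 0 reversed. The cause of these moves was not tested. Genes below 1 CPM rest on few counts.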

Other observations

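Lists not described above also held called genes. Of 69 lysosomal genes 9 fell and 0 rose, among them Atp6v0d2, a proton pump subunit, at -3.94 (SE 0.40). Its 8 M28L libraries lay between 0.00992 and 0.154 CPM and its 5xFAD libraries between 0.216 and 1.62 CPM, with no overlap. Of 42 type I interferon response genes 2 fell, with a median of -0.31 and 0 members above 0. Of 22 complement genes 2 fell and of 30 Toll-like, Fc and scavenger receptors 4 fell.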
